A study of Mus musculus with 9 samples.

Results

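The proneural basic helix-loop-helix (bHLH) genes described here are 9 mouse genes, Neurog1, Neurog2, Neurog3, Neurod1, Neurod4, Nhlh1, Nhlh2, Atoh1 and Olig3. They were chosen by symbol, as the rows of a count table of 54532 genes whose Ensembl IDs carry these names, and all 9 were found. RNA was counted in 9 libraries of cells sorted from neural tube organoids, which are clonal cultures grown in Matrigel from R1 mouse embryonic stem cells. All cells came from this 1 line and carried FoxA2-Venus, a fluorescent reporter for the floor plate factor Foxa2, and all were collected 66 h after the medium change at Day 2. SAG GFP+ cells had high reporter signal and were grown in N2B27 to which SAG was added, a small molecule that activates Smoothened, the transducer of hedgehog signals. RA GFP+ cells had high signal and came from N2B27 medium with all-trans retinoic acid (RA). RA GFP- cells had low signal and came from the same RA medium. Each group has 3 biological replicates (n = 3). The RA dose stands as 250 nM in one part of the sources and as 250 µM in another, and neither the SAG dose nor whether the SAG medium also held RA is given in the sources used here. GFP- cells from SAG medium were not analysed here, so SAG and RA are compared among GFP+ cells.

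Proneural bHLH proteins turn dividing neural progenitors into neurons. Most bind DNA at E-boxes, short sites of the form CANNTG, as dimers with widely expressed E proteins, and Id proteins block this pairing. Neurogenins act early, in progenitors, where they switch on Delta ligands that hold neighbouring cells back through Notch and Hes repressors. Neurod and Nhlh genes act later, in cells leaving the cell cycle. Neurog1 and Neurog2 are known for neurons of the spinal cord and cranial sensory ganglia, Atoh1 for the most dorsal spinal interneurons and the rhombic lip, and Olig3 for dorsal progenitors and a narrow ventral domain beside the floor plate. Neurog3 is best known as the endocrine determinant of the pancreas.

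E-boxes are the letters through which these proteins reach DNA, so they were searched in the 250 bases upstream of the RefSeq start of each gene (build GRCm38.p6). All 9 genes had a promoter in the table, 10 in all, since Neurod4 has a pair of starts. A CANNTG word, which reads the same way on both strands as a class, was in the windows of 5 of the 9 genes, against 66.2% of 32851 mouse promoters of the same length. CAGATG or its reverse complement was in 2 of the 9, Nhlh1 and Nhlh2, against 14.4% of all promoters. CAGCTG was in 1, Neurog3, against 13.0%. Both of these words are also CANNTG words. The windows of Neurod4, Nhlh1 and Nhlh2 are shown as 3 examples. Neurod4 and Nhlh1 had the largest fold changes between SAG and RA in GFP+ cells, where Olig3 was the only other member called, and Nhlh2 has the same CAGATG word as Nhlh1 but was not called there. Each reads 5′ to 3′ towards the start site, with E-boxes in capitals. They lie at chr10:130280255-130280504 (minus strand), chr1:172057597-172057846 (minus strand) and chr3:102009895-102010144 (plus strand).
Neurod4: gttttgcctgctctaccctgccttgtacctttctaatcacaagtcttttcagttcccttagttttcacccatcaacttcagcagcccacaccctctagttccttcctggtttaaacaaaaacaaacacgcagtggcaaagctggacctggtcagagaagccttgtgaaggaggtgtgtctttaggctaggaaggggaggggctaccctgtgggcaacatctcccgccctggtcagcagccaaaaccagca
Nhlh1: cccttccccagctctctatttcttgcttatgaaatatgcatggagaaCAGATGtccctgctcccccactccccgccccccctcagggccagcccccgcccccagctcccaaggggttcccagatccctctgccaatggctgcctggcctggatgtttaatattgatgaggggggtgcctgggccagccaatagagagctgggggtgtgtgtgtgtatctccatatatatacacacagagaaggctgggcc
Nhlh2: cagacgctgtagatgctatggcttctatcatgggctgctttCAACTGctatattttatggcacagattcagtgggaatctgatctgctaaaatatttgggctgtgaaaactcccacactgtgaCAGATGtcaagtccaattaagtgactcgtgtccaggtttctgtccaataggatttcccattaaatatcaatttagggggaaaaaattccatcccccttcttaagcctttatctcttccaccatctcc
The CAGATG word begins 203 bases upstream of the start in Nhlh1 and 127 bases upstream in Nhlh2, which also has CAACTG at 209. No CANNTG word is in the Neurod4 window. The other words found were CAGCTG in Neurog3 at 165, CATATG in Neurod1 at 242 and CAACTG in Olig3 at 30 bases, and the Neurog1, Neurog2 and Atoh1 windows held none. A word of this kind occurs in most promoters, and its presence or absence in this window says nothing of binding.

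Total counts per library ranged from 25281871 to 29763765. Levels are given as CPM, counts per 1000000 counts of the library after scaling by TMM factors. Foxa2, the gene behind the sort, had 326, 212 and 205 CPM in SAG GFP+ libraries, 184, 157 and 133 CPM in RA GFP+ libraries, and 2.47, 1.33 and 2.51 CPM in RA GFP- libraries. Of 10 floor plate markers tested, Foxa2 itself included, 9 were higher in RA GFP+ and 8 in SAG GFP+ than in RA GFP-. Of all genes 8.49% and 12% were higher in these comparisons. Libraries correlated at r = 0.970 to 0.986 within groups and at 0.887 to 0.951 between groups (log2 CPM across genes). SAG GFP+ replicate 1 stood apart from replicates 2 and 3, with 171 against 37.4 and 39.3 CPM of the pluripotency factor Pou5f1, so results that involve SAG are also given without it where they turn on it. In sorted bulk RNA, fewer cells of a type and less RNA per cell cannot be told apart.

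In RA medium, the GFP+ cells had lower levels of nearly the whole family than the GFP- cells. Of the 8 members with enough counts to test, 7 were lower and 0 higher in RA GFP+ (edgeR quasi-likelihood test over 16772 genes, Benjamini-Hochberg adjusted p under 0.05; the same counts by DESeq2 and at an unadjusted p under 0.05), against 8.43% of all genes lower, 8.49% higher and 16.9% called in either direction. Neurog1 was 19.0-fold, Nhlh2 13.6-fold, Neurod4 10.4-fold and Nhlh1 8.66-fold lower, and Olig3 did not pass. The groups did not overlap for 7 of the 8, as for 36.4% of all genes. The median log2 fold change of the 8 was -2.81, against -0.02 for all tested genes. With the replicate number as a block in the 6 RA libraries, the same count of 7 was lower, while the calls over all genes were 2615 higher and 2625 lower, against 1424 higher and 1414 lower without it. Pluripotency genes moved in the same direction: 9 of 10 tested were lower in RA GFP+, with a summed level of 70.2 to 83.9 CPM in RA GFP+ libraries against 1036 to 1585 CPM in RA GFP- libraries, and none was at 0. Of the mesenchyme markers 7 of 10 were higher in RA GFP+, with summed levels of 73.2 to 90.9 CPM against 18.8 to 26.6 CPM in RA GFP-, and of the endoderm markers 6 of 9 were higher, with 134 to 231 CPM against 55.7 to 90.6 CPM. Among the endoderm markers Afp and Ttr were at 0 in RA GFP-, where Epcam (36.9 to 66.4 CPM) and Cldn6 (12.3 to 17.0 CPM) made up most of the sum. The part of these cells in the result was not tested.

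Under SAG, the GFP+ cells differed from the RA GFP+ cells in 3 of the 8 members, all higher: Neurod4 by 78.6-fold, Nhlh1 by 5.30-fold and Olig3 by 3.26-fold. By edgeR, DESeq2 and an unadjusted p under 0.05, 0 were lower. Of all genes 9.78% were higher, 14.8% lower and 24.5% called in either direction. Only these 3 members had groups that did not overlap, as did 42.9% of all genes. The median log2 fold change of the 8 was 0.76, against -0.02 for all genes. Without SAG GFP+ replicate 1 the same 3 genes were called, Neurod4 at a log2 fold change of 6.74 and Nhlh1 at 2.86. The count was 2 without RA GFP+ replicate 1 or 2, and 4 without RA GFP+ replicate 3. Here 2 of 10 pluripotency genes were higher and 6 lower in SAG GFP+, with summed levels of 66.5 to 225 CPM in SAG GFP+ against 70.2 to 83.9 CPM in RA GFP+. The 225 CPM was in SAG GFP+ replicate 1, and the other SAG GFP+ replicates had 66.5 and 76.2 CPM. Endoderm and mesenchyme markers were lower in 6 of 9 and 6 of 10, at 27.8 to 88.0 and 36.9 to 53.3 CPM in SAG GFP+ against 134 to 231 and 73.2 to 90.9 CPM in RA GFP+. The endoderm marker Afp and the mesenchyme marker Osr1 were at 0 in SAG GFP+, and the part of these markers' cells was not tested.

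SAG GFP+ and RA GFP- cells differed in medium and in sort together, and these cannot be told apart. Neurod4 was 7.55-fold higher in SAG GFP+, and Neurog1, Nhlh2, Neurog2 and Neurog3 were 21.1-fold, 7.62-fold, 5.31-fold and 4.26-fold lower. That is 1 of 8 higher, against 12% of all genes, and 4 of 8 lower, against 16.5%, with 28.5% called in either direction. Olig3 passed as well, giving 2 of 8 higher, under 8 of 16 alternatives. The groups did not overlap for 6 of the 8, as for 41.1% of all genes. The median log2 fold change of the 8 was -1.40, against -0.01 for all genes. All 10 pluripotency genes tested were lower in SAG GFP+, at 66.5 to 225 CPM in sum against 1036 to 1585 CPM in RA GFP-. Of 10 mesenchyme markers 5 were higher (3 without RA GFP- replicate 1), at 36.9 to 53.3 CPM in SAG GFP+ against 18.8 to 26.6 CPM in RA GFP-. Endoderm markers overlapped between the groups only through SAG GFP+ replicate 1, at 88.0 CPM in sum. The other SAG GFP+ replicates had 27.8 and 38.0 CPM, against 55.7 to 90.6 CPM in RA GFP-. Epcam (55.2, 19.0 and 21.9 CPM) and Cldn6 (24.7, 5.39 and 9.89 CPM) made up most of the SAG GFP+ sums, as of those in RA GFP-. In SAG GFP+ replicate 1 Sox17 was at 0.896 CPM and Afp at 0. Of 9 endoderm markers tested, 2 were lower, a count that 7 of the 9 fits without 1 library brought to 0 or 1. The part of these genes' cells in the result was not tested. The comparisons share groups, so their values are set side by side and are not independent.

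**Figure D1:**
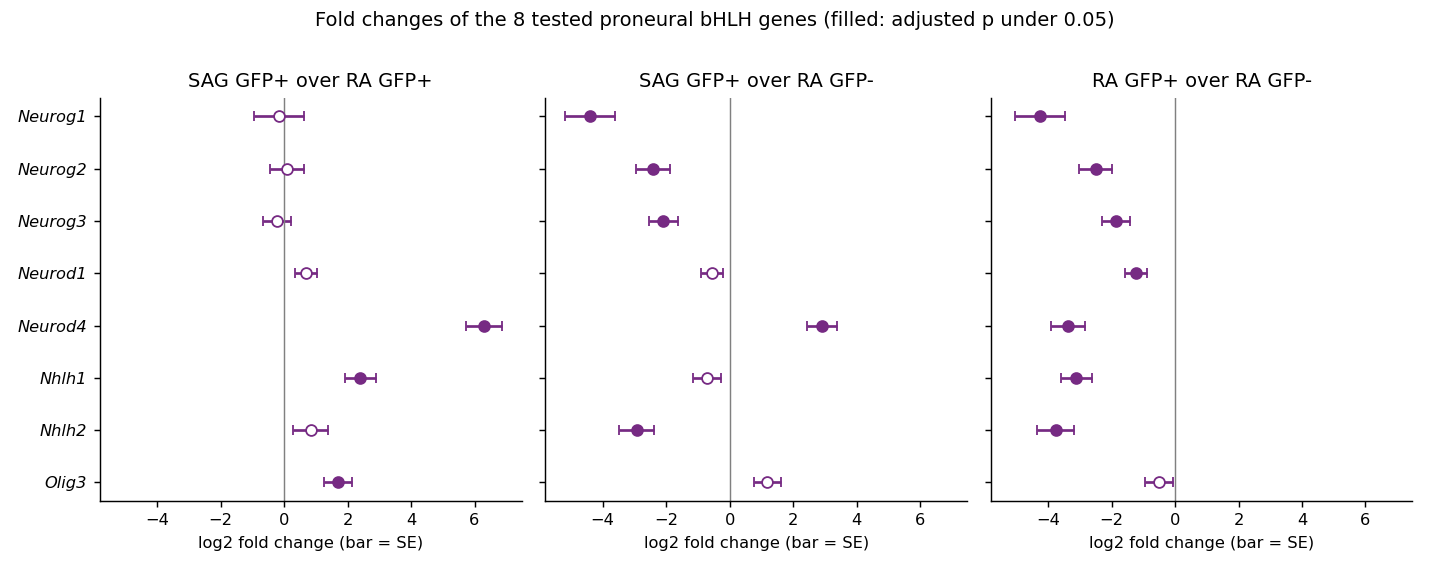
Log2 fold changes of the 8 tested proneural bHLH genes in the 3 comparisons, with the standard error as a bar and filled points for an adjusted p under 0.05. RA GFP+ over RA GFP- shows 7 filled points left of 0, SAG GFP+ over RA GFP+ shows Neurod4, Nhlh1 and Olig3 filled on the right, and SAG GFP+ over RA GFP- shows Neurod4 alone filled on the right.

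Neurog1 (chr13:56250478-56252163, GRCm38, minus strand, ENSMUSG00000048904), a determinant of cranial sensory and spinal neurons, had 0.204, 3.33 and 0.662 CPM in SAG GFP+ replicates 1 to 3, 0.431, 1.38 and 2.86 CPM in RA GFP+ replicates, and 18.9, 30.2 and 40.8 CPM in RA GFP- replicates. Every GFP- library was above every GFP+ library, and the GFP+ groups overlapped. The log2 fold change was -4.25 ± 0.79 (SE) in RA GFP+ over RA GFP- (adjusted p = 0.00353) and -4.40 ± 0.80 in SAG GFP+ over RA GFP- (adjusted p = 0.0018). Between SAG GFP+ and RA GFP+ it was -0.15 ± 0.78 (adjusted p = 0.914), and its sign depended on single libraries. The 111 counts in SAG GFP+ were uneven, with 89 of them in replicate 2. Without that library the log2 fold change over RA GFP- was -6.06 (adjusted p 0.000457), and without RA GFP+ replicate 3 the log2 fold change within RA was -5.02 (adjusted p 0.00436).

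Neurog2 (chr3:127633135-127635631, plus strand, ENSMUSG00000027967), which starts neurogenesis in motor neuron and dorsal interneuron progenitors, had the lowest mean per length of the neurogenins in each group. In SAG GFP+ replicate 1 it was the highest of them, at 0.677 CPM per kilobase of exon against 0.121 for Neurog1 and 0.462 for Neurog3. The level of Neurog2 was 1.51, 1.05 and 0.506 CPM in SAG GFP+, 0.392, 0.739 and 1.71 CPM in RA GFP+, and 4.87, 7.13 and 4.30 CPM in RA GFP-. As for Neurog1, the GFP- libraries lay above all GFP+ libraries. Neurog2 had a log2 fold change of -2.51 ± 0.53 in RA GFP+ over RA GFP- (adjusted p = 0.00709; -3.24 without RA GFP+ replicate 3) and -2.41 ± 0.53 in SAG GFP+ over RA GFP- (adjusted p = 0.0057). Between the GFP+ groups it was 0.10 ± 0.54 (adjusted p = 0.917), with overlapping values.

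Neurog3 (chr10:62133090-62134763, plus strand, ENSMUSG00000044312) had 0.774, 3.07 and 3.27 CPM in SAG GFP+, 2.90, 2.89 and 2.55 CPM in RA GFP+, and 13.2, 10.7 and 6.55 CPM in RA GFP-. It was the steadiest member in RA GFP+, with a coefficient of variation of 7.26%, and again the GFP- libraries were the highest. Its log2 fold change was -1.86 ± 0.45 in RA GFP+ over RA GFP- (adjusted p = 0.0137) and -2.09 ± 0.45 in SAG GFP+ over RA GFP- (adjusted p = 0.00522). Leaving out RA GFP- replicate 1 ended the call within RA (adjusted p 0.0569), as did leaving out RA GFP+ replicate 2 (0.0516), over a range of 2.45e-05 to 0.0569 for all alternatives. These 2 fits had no replicate block, and with the replicate number as a block in the 6 RA libraries the adjusted p was 0.000178. Between the GFP+ groups the difference was -0.22 ± 0.45 (adjusted p = 0.755). Its exons share 273 bases, 16.3% of their length, with Fam241b on the opposite strand, which had 229 to 414 counts in SAG GFP+, 264 to 289 in RA GFP+ and 337 to 421 in RA GFP-. The strand setting of the counting is not given in the sources used here, so reads in the shared stretch cannot be told apart.

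Around Neurog3, other endocrine genes gave a mixed picture. Of the 8 endocrine genes tested, Neurog3 included, 3 were higher and 4 lower in RA GFP+ than in RA GFP-, where Nkx2-2 (log2 fold change 4.74) and Insm1 (-3.23) had the smallest adjusted p. In SAG GFP+ over RA GFP+, 4 were higher and 1 lower (2 lower with SAG GFP+ replicate 1 left out, and also with replicate 3 of either RA group left out), and in SAG GFP+ over RA GFP-, 3 were higher and 2 lower. The pancreatic hormone gene Gcg was at 0 counts in all 3 groups, and the pancreatic factor Pdx1 stayed at or under 0.150 CPM in SAG GFP+, 0.202 CPM in RA GFP+ and 0.305 CPM in RA GFP-. Sst, a hormone and neuropeptide gene, had 0.0815, 0.112 and 0.856 CPM in SAG GFP+, 0.196, 0.504 and 2.55 CPM in RA GFP+, and 7.17, 10.2 and 20.4 CPM in RA GFP-. Its call within RA needed both RA GFP- replicate 3 and RA GFP+ replicate 2. Without RA GFP+ replicate 2 the list had 1 lower gene in that comparison, and without RA GFP- replicate 3 it had 2.

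**Figure D2:**
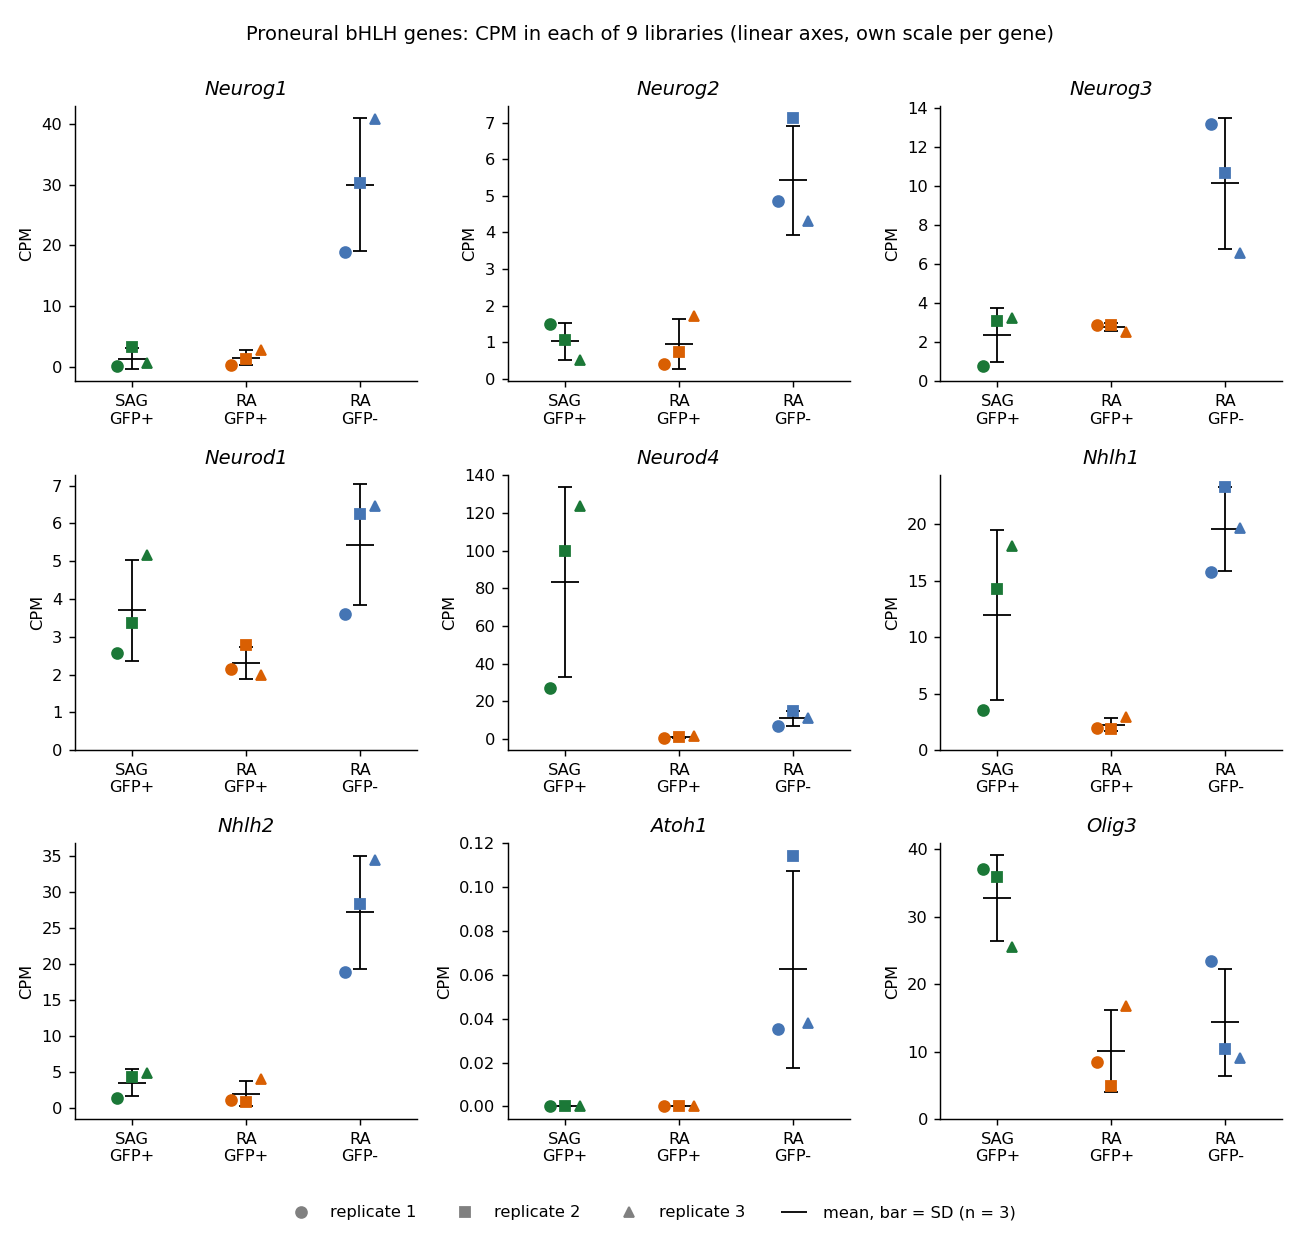
CPM of the 9 proneural bHLH genes in each library, with 1 panel a gene on its own linear axis, symbols for replicates 1 to 3, and the mean with its SD (n = 3). The 3 neurogenins and Nhlh2 are highest in RA GFP-, Neurod4 and Olig3 in SAG GFP+, and Atoh1 is at 0 in both GFP+ groups.

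Neurod1 (chr2:79452521-79456751, minus strand, ENSMUSG00000034701), a differentiation factor of sensory, cerebellar and endocrine cells, had levels of 2.57, 3.37 and 5.18 CPM in SAG GFP+, 2.16, 2.79 and 1.99 CPM in RA GFP+, and 3.60, 6.25 and 6.47 CPM in RA GFP-. The largest of its 3 fold changes was smaller than that of any other tested member. The RA groups did not overlap, while SAG GFP+ overlapped with both. The log2 fold change was -1.23 ± 0.35 in RA GFP+ over RA GFP- (adjusted p = 0.0304). That call was lost without any 1 of the 3 RA GFP+ replicates or of RA GFP- replicates 2 and 3 (adjusted p 0.0577 to 0.0972), over a range of 0.00416 to 0.0972 for all alternatives. Those fits without 1 library had no replicate block, and with the block in the 6 RA libraries the adjusted p was 0.00582. In SAG GFP+ the log2 fold change was 0.68 ± 0.35 over RA GFP+ (adjusted p = 0.18) and -0.55 ± 0.34 over RA GFP- (adjusted p = 0.251). Its exons share 7.4% of their bases with Cerkl, which had 64 counts over all libraries against 917 for Neurod1.

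Neurod4 (chr10:130268152-130280240, minus strand, ENSMUSG00000048015), a factor of differentiating neurons that works downstream of neurogenins, had the largest log2 fold change of the 8 between the GFP+ groups. It had 27.05, 99.8 and 124 CPM in SAG GFP+, 0.823, 0.941 and 1.40 CPM in RA GFP+, and 6.88, 14.9 and 11.5 CPM in RA GFP-. The 3 groups did not overlap: SAG GFP+ was highest and RA GFP+ lowest. The log2 fold change was 6.30 ± 0.58 in SAG GFP+ over RA GFP+ (adjusted p = 2.46e-05), 2.92 ± 0.47 in SAG GFP+ over RA GFP- (adjusted p = 0.000858) and -3.38 ± 0.54 in RA GFP+ over RA GFP- (adjusted p = 0.00142). SAG GFP+ replicate 1 was far below the other 2, and without it the first 2 values were 6.74 and 3.36.

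Nhlh1 (chr1:172052292-172057573, minus strand, ENSMUSG00000051251), a mark of newly born neurons, had 3.58, 14.3 and 18.1 CPM in SAG GFP+, 1.96, 1.88 and 2.93 CPM in RA GFP+, and 15.8, 23.3 and 19.7 CPM in RA GFP-. Both SAG GFP+ and RA GFP- lay above RA GFP+ in every library, and they overlapped with each other. The log2 fold change was 2.41 ± 0.48 in SAG GFP+ over RA GFP+ (adjusted p = 0.00357) and -3.11 ± 0.49 in RA GFP+ over RA GFP- (adjusted p = 0.00123). In SAG GFP+ over RA GFP- it was -0.71 ± 0.44 (adjusted p = 0.255), and -0.25 without SAG GFP+ replicate 1.

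Nhlh2 (chr3:102010076-102015492, plus strand, ENSMUSG00000048540), the closest relative of Nhlh1, is expressed in early neurons and later in the hypothalamus. Its level was 1.47, 4.35 and 4.87 CPM in SAG GFP+, 1.18, 0.807 and 4.01 CPM in RA GFP+, and 18.9, 28.3 and 34.4 CPM in RA GFP-. Here SAG GFP+ stayed with RA GFP+, unlike in Nhlh1, and RA GFP- was far above both. For Nhlh2 the log2 fold change was -3.76 ± 0.59 in RA GFP+ over RA GFP- (adjusted p = 0.00123) and -2.93 ± 0.56 in SAG GFP+ over RA GFP- (adjusted p = 0.00244). Between SAG GFP+ and RA GFP+ it was 0.83 ± 0.56 (adjusted p = 0.315). RA GFP+ replicate 3 decided that value: without it the log2 fold change was 1.85 (adjusted p 0.0222, over a range of 0.0222 to 0.642 for all alternatives), and the one within RA was -4.78.

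Olig3 (chr10:19356533-19358604, plus strand, ENSMUSG00000045591) had 37.0, 35.9 and 25.5 CPM in SAG GFP+, 8.47, 4.94 and 16.8 CPM in RA GFP+, and 23.4, 10.4 and 9.10 CPM in RA GFP-. All SAG GFP+ libraries were above all RA libraries, and the RA groups overlapped. The log2 fold change was 1.70 ± 0.44 in SAG GFP+ over RA GFP+ (adjusted p = 0.0148). It did not pass when RA GFP+ replicate 1 (0.0561) or 2 (0.0518) was left out, over a range of 4.7e-08 to 0.0561 for all alternatives, and was 2.29 without RA GFP+ replicate 3. Over RA GFP- it was 1.19 ± 0.43 and just missed the threshold (adjusted p = 0.0582), passing under 8 of 16 alternatives over a range of 7.87e-05 to 0.169. Among these were DESeq2 (0.0176), the fit of the 6 libraries compared (0.0284) and the fits without RA GFP- replicate 1 (0.0159) or without RA GFP+ replicate 2 or 3. In RA GFP+ over RA GFP- it was -0.51 ± 0.43 (adjusted p = 0.48).

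Atoh1 (chr6:64729125-64731245, plus strand, ENSMUSG00000073043) had 0 counts in every SAG GFP+ and RA GFP+ library and 1, 3 and 1 counts in the RA GFP- libraries. A group count of 0 allows up to 3 counts, or 0.039 CPM in SAG GFP+ and 0.0357 CPM in RA GFP+, against 0.0618 CPM pooled over RA GFP-. The exact 95% interval of the ratio to RA GFP-, which covers counting error only, ran from 0 to 1.15 for SAG GFP+ and from 0 to 1.05 for RA GFP+, so no difference was detectable at this depth.

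Between genes, levels can be compared only per kilobase of exon. In SAG GFP+ libraries Neurod4 led with a mean of 24.9 ± 15.0 CPM per kb (SD), then Olig3 with 15.8 ± 3.05 and Nhlh1 with 4.86 ± 3.05, and the other 6 were at or under 1.42 CPM per kb. In RA GFP+ libraries Olig3 led with a mean of 4.86 ± 2.93 CPM per kb and Neurog3 was next with 1.66 ± 0.12, while the others were at or under 0.923. In RA GFP+ replicate 3, though, Neurog1 was above Neurog3, at 1.70 against 1.52 CPM per kb. In RA GFP- libraries Neurog1 led with 17.8 ± 6.49 CPM per kb, followed by Nhlh1 with 7.96 ± 1.52, Olig3 with 6.91 ± 3.82, Neurog3 with 6.05 ± 2.00 and Nhlh2 with 5.02 ± 1.44. The neighbours after Neurog1 in that order lay within their spread, as did Neurod4 and Olig3 in SAG GFP+. Neurog1 did not lead in RA GFP- replicate 1, where Olig3 had 11.3 CPM per kb against 11.2 for Neurog1.

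The 9 genes added up to 74.1, 165 and 182 CPM in SAG GFP+, 18.3, 16.4 and 34.2 CPM in RA GFP+, and 106, 131 and 133 CPM in RA GFP-. RA GFP+ libraries were the lowest. The SAG GFP+ and RA GFP- sums overlapped only through SAG GFP+ replicate 1, and the other SAG GFP+ replicates lay above every RA GFP- library. No test of the sum was run. Of the summed CPM per kb, Neurod4 took 27.1, 50.3 and 59.6% in SAG GFP+ libraries, 2.97, 3.76 and 2.75% in RA GFP+ libraries and 4.49, 8.23 and 6.28% in RA GFP- libraries. Neurog1 took 0.405, 3.34 and 0.634% in SAG GFP+, 3.08, 10.9 and 11.2% in RA GFP+, and 24.4, 33.2 and 44.3% in RA GFP-. Olig3 took 59.8, 29.2 and 19.9% in SAG GFP+, 49.2, 31.9 and 53.4% in RA GFP+, and 24.7, 9.33 and 8.04% in RA GFP-. In SAG GFP+ replicate 1 Olig3 was the largest share and in replicates 2 and 3 Neurod4 was.

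**Figure D3:**
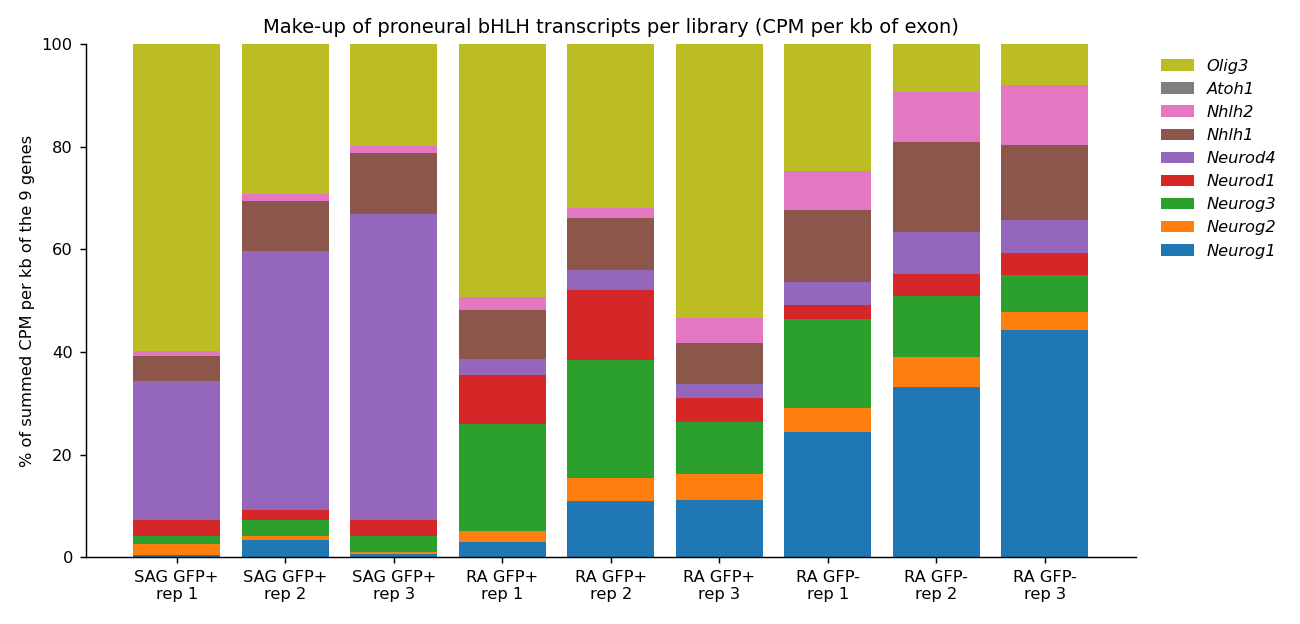
Share of each of the 9 genes in their summed CPM per kb of exon, as stacked bars for the 9 libraries. Neurod4 and Olig3 fill most of the SAG GFP+ bars. Olig3 is the largest share in RA GFP+, with Neurog3 next in replicates 1 and 2. Neurog1 is the largest share in 2 of the 3 RA GFP- bars.

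Across the 9 libraries the likeness between members is described by Pearson's r of log2 CPM. These libraries form 3 groups and share their depth scaling, so r mostly follows the group means. Neurog1 and Nhlh2 were most alike among members (r = 0.901), then Neurod1 and Nhlh1 (0.877), while Neurog1 and Neurod4 (0.0387) and Neurog3 and Olig3 (-0.281) had little likeness. Of all tested genes with a mean of at least 5 CPM, those most like Neurod4 were Elavl4 (0.989), Insm1 (0.982) and Tmsb4x (0.981). Nhlh1 was most like Chrna3 (0.974), Megf10 (0.971) and Hes5 (0.958), and Nhlh2 most like Scrt2 (0.990), Tbc1d9 (0.977) and Mok (0.973). For Neurog1 these were C130071C03Rik (0.967), Rtl5 (0.962) and Aebp2 (0.961), for Neurog2 Ggh (0.979), Wscd1 (0.975) and Gabpa (0.960), and for Neurog3 Rnd1 (0.964), Zfp57 (0.963) and Mon1a (0.950). Neurod1 was most like Rb1 (0.942), Agk (0.928) and the Delta ligand gene Dll1 (0.924), and Olig3 most like Pclaf (0.961), Bex2 (0.939) and Zfp874b (0.937).

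The partners and inhibitors of these factors were set beside them. The E protein genes Tcf3, Tcf4 and Tcf12 summed to 964 to 1081 CPM in SAG GFP+, 867 to 894 CPM in RA GFP+ and 710 to 833 CPM in RA GFP-. Tcf12 was higher in SAG GFP+, by a log2 fold change of 0.62 ± 0.17 over RA GFP+ (adjusted p = 0.0174) and 0.92 ± 0.17 over RA GFP- (0.00174). The first of these calls was lost without RA GFP+ replicate 1 or 2 or SAG GFP+ replicate 2 or 3. Tcf4 was also higher over RA GFP- (0.45), a call lost without any 1 of RA GFP- replicates 1 and 2 and SAG GFP+ replicates 2 and 3. Over RA GFP+, 1 of the 3 was higher, and 2 were without SAG GFP+ replicate 1. Within RA edgeR called 0 of the 3, as did DESeq2, and 0 had an unadjusted p under 0.05. Among the 4 Id genes, inhibitors of bHLH pairing, Id3 was lower in SAG GFP+, at -1.04 over RA GFP+ (adjusted p = 0.000986) and -1.56 over RA GFP- (5.81e-05). Id1 was lower too, at -0.86 (0.0117; lost without SAG GFP+ replicate 2) and -0.88 (0.00896). In RA GFP+ over RA GFP- edgeR called 0 of the 4 and DESeq2 1 lower, and 2 had an unadjusted p under 0.05, both lower. With the replicate number as a block 2 were lower, as they were without RA GFP+ replicate 3, and 1 was without SAG GFP+ replicate 1 or 3.

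Many Hes and Hey genes encode repressors that act on proneural genes downstream of Notch. The list counted here also holds Hes6, which is counted again below among genes known to be switched on by proneural factors. Hes5 had 11.9, 26.5 and 29.8 CPM in SAG GFP+, 4.04, 5.54 and 10.6 CPM in RA GFP+, and 44.3, 64.7 and 78.9 CPM in RA GFP-. Its order of groups was that of Nhlh1, with a log2 fold change of -3.21 in RA GFP+ over RA GFP- (adjusted p = 0.00038) and 1.75 in SAG GFP+ over RA GFP+ (0.00766). Hes1, by contrast, was higher in both GFP+ groups: 112, 152 and 183 CPM in SAG GFP+ and 132, 119 and 126 CPM in RA GFP+, against 50.4, 39.6 and 45.1 CPM in RA GFP-. Of the 8 tested genes, 3 were higher and 3 lower in RA GFP+ over RA GFP-, 3 higher and 1 lower in SAG GFP+ over RA GFP+ (5 higher without SAG GFP+ replicate 1), and 3 higher and 2 lower in SAG GFP+ over RA GFP-. The gene called lower in SAG GFP+ over RA GFP+ was Heyl (-3.06 ± 0.45).

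Among 21 other neural bHLH genes, 10 had enough counts to test. Bhlhe22, a gene of maturing interneurons, was lower in RA GFP+ than in RA GFP- (-3.52) and higher in SAG GFP+ than in RA GFP+ (2.29), the second call being lost without RA GFP+ replicate 2 or SAG GFP+ replicate 2. Olig2, the motor neuron progenitor factor, had 21.7, 10.9 and 7.20 CPM in SAG GFP+ and 0.565, 1.68 and 1.18 CPM in RA GFP- (log2 fold change 3.54, adjusted p = 0.00356). In RA GFP+ libraries it had 1.14, 3.49 and 9.73 CPM, which overlapped with SAG GFP+. Ptf1a, which specifies dorsal inhibitory neurons, had 0 counts in SAG GFP+ and at most 0.202 CPM in RA GFP+ and 0.988 CPM in RA GFP-. In all, 1 of the 10 was higher and 4 lower in RA GFP+ over RA GFP- (3 and 5 with the replicate block in the 6 RA libraries), 3 higher and 1 lower in SAG GFP+ over RA GFP+, and 2 higher and 3 lower in SAG GFP+ over RA GFP-. Within RA 0 were higher when RA GFP+ replicate 2 was left out, and 2 when replicate 1 of RA GFP+ or of SAG GFP+ was. Only 1 was higher in SAG GFP+ over RA GFP+ without RA GFP+ replicate 2. The 1 lower gene there, Ptf1a, was not called without RA GFP+ replicate 2 or 3 or SAG GFP+ replicate 1, 2 or 3, and 2 were lower without RA GFP- replicate 1.

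Most genes known to be switched on by proneural factors were lower in RA GFP+ than in RA GFP- and higher in SAG GFP+ than in RA GFP+, as Neurod4 and Nhlh1 were. The list of 27 such genes includes the members Neurod1, Neurod4 and Nhlh1, and all 27 were tested. In RA GFP+ over RA GFP-, 19 were lower and 0 higher, with a median log2 fold change of -1.68 against -0.02 for all genes. In SAG GFP+ over RA GFP+, 18 were higher and 1 lower (Btg2, -0.55, lost without RA GFP+ replicate 1 or 2 or SAG GFP+ replicate 2), with a median of 2.01 against -0.02. Insm1, a zinc finger gene of delaminating progenitors, had 24.8, 64.4 and 64.1 CPM in SAG GFP+, 1.76, 1.81 and 2.65 CPM in RA GFP+, and 15.0, 23.6 and 19.8 CPM in RA GFP-. The groups did not overlap, and its log2 fold changes were 4.62 in SAG GFP+ over RA GFP+ (adjusted p = 1.23e-05), 1.39 in SAG GFP+ over RA GFP- (0.00787) and -3.23 in RA GFP+ over RA GFP- (0.000168). Elavl4, which encodes a neuronal RNA-binding protein, had 37.1, 101 and 133 CPM in SAG GFP+, 5.72, 5.21 and 10.7 CPM in RA GFP+, and 18.6, 27.2 and 29.5 CPM in RA GFP-. Its call within RA (-1.80) was lost without RA GFP+ replicate 2.

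The Notch ligand genes in that list had their highest means in RA GFP-, as the neurogenins did. Dll1 had 58.3, 77.5 and 73.6 CPM in SAG GFP+, 33.0, 44.2 and 42.6 CPM in RA GFP+, and 69.5, 140 and 127 CPM in RA GFP-. Dll4 had 1.96, 2.55 and 2.10 CPM in SAG GFP+, 0.431, 0.941 and 0.942 CPM in RA GFP+, and 4.94, 8.99 and 7.31 CPM in RA GFP-. In SAG GFP+ over RA GFP- Dll4 was lower (log2 fold change -1.68, adjusted p = 0.00408), and Dll1 was lower at an adjusted p of 0.0455 that 8 of its alternatives lost (range 0.00154 to 0.172). In that comparison 6 of the 27 were higher and 5 lower. Without SAG GFP+ replicate 1 these were 11 higher and 3 lower, and 3 were lower without SAG GFP+ replicate 3 or without replicate 2 of any 1 group.

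**Figure D4:**
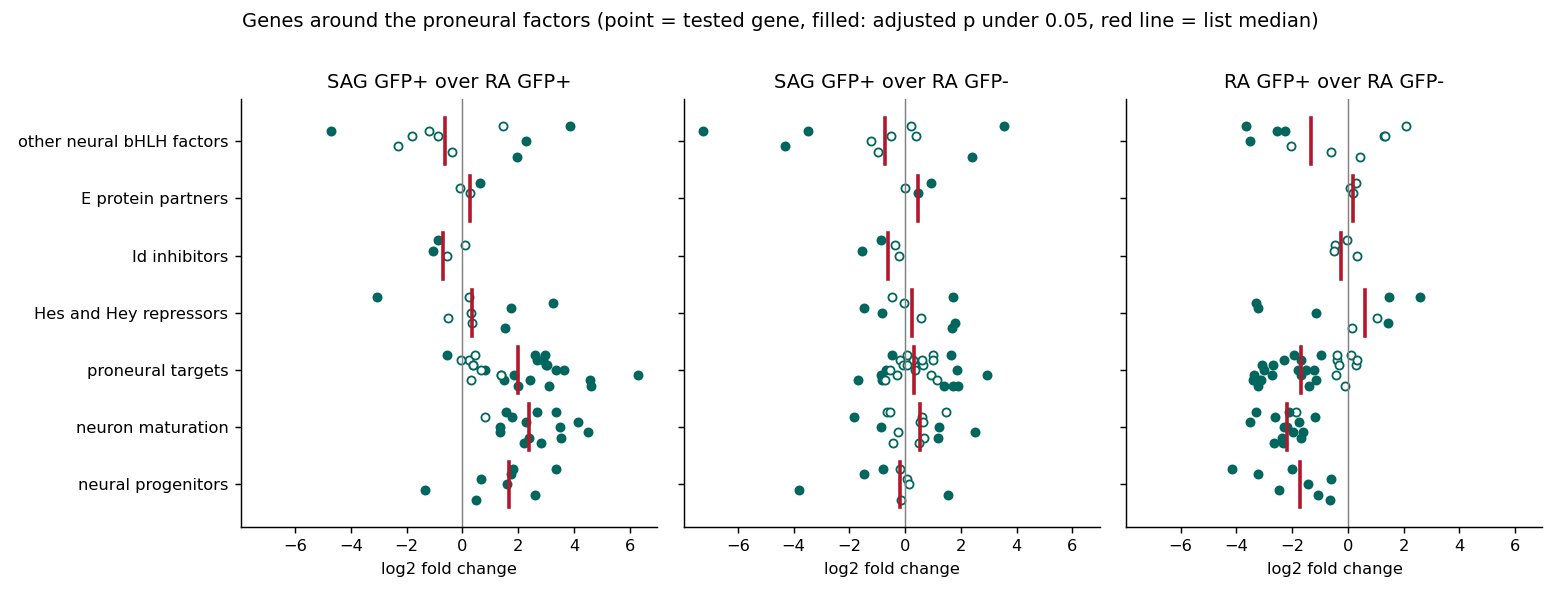
Log2 fold changes of the tested genes of 7 lists around the proneural factors in the 3 comparisons, with filled points for an adjusted p under 0.05 and a red line for the list median. Proneural targets, neuron maturation genes and neural progenitor genes lie mostly right of 0 in SAG GFP+ over RA GFP+ and mostly left of 0 in RA GFP+ over RA GFP-.

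Most genes of maturing neurons and of neural progenitors were called in the same directions. Of 15 neuron maturation genes, 14 were lower in RA GFP+ than in RA GFP- and 14 higher in SAG GFP+ than in RA GFP+. Their summed level was 498 to 702 CPM in SAG GFP+, 121 to 151 CPM in RA GFP+ and 483 to 592 CPM in RA GFP-. Stmn2, a growth cone gene, had 174, 107 and 196 CPM in SAG GFP+, 8.27, 6.42 and 6.52 CPM in RA GFP+, and 31.2, 30.1 and 22.6 CPM in RA GFP-. Over RA GFP-, SAG GFP+ had 3 of the 15 higher and 2 lower, and 8 higher without its replicate 1. The count lower was 1 without RA GFP- replicate 1 or SAG GFP+ replicate 3. All 8 progenitor genes were lower in RA GFP+ than in RA GFP-, with a summed level of 515 to 777 CPM against 1390 to 1520 CPM, and 7 of the 8 were higher in SAG GFP+ than in RA GFP+, where SAG GFP+ summed to 1303 to 1480 CPM. The remaining one, Pax6, was lower (-1.33, adjusted p = 0.0481), a call that 11 of 16 alternatives lost. The part of cell make-up in the levels of the proneural genes was not tested.

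Genes of the neuron types that proneural factors specify were called in both directions. Of 12 dorsal interneuron genes tested, 3 were higher and 4 lower in RA GFP+ over RA GFP-, with 5 and 7 under the replicate block in the 6 RA libraries and 1 higher without RA GFP+ replicate 2. In SAG GFP+, 2 were higher and 4 lower over RA GFP+, and 2 higher and 7 lower over RA GFP-. The dorsal factor Lbx1 was at 0 counts in SAG GFP+, against 0.666, 0.336 and 1.74 CPM in RA GFP+ and 7.10, 9.07 and 11.2 CPM in RA GFP-. Of 9 ventral neuron genes, 4 were higher and 3 lower in RA GFP+ over RA GFP- (5 lower without SAG GFP+ replicate 1), 2 higher and 4 lower in SAG GFP+ over RA GFP+, and 3 higher and 2 lower in SAG GFP+ over RA GFP-. Nkx2-2, a ventral progenitor factor, had 35.5, 39.5 and 51.5 CPM in SAG GFP+, 3.21, 2.49 and 1.604 CPM in RA GFP+, and at most 0.114 CPM in RA GFP-.

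Sensory ganglion genes were set beside Neurog1 and Neurod1. Of 14, 4 were higher and 1 lower in RA GFP+ over RA GFP- (4 lower with the replicate block, 2 higher and 2 lower without RA GFP+ replicate 3, and 3 lower without RA GFP- replicate 1). In SAG GFP+, 4 were higher and 5 lower over RA GFP+, and 5 higher and 5 lower over RA GFP-. The genes higher in RA GFP+ over RA GFP- were Eya1 (log2 fold change 1.82, adjusted p = 0.00215), Runx1 (2.17, 0.00768), Sox10 (2.03, 0.0112) and Isl1 (1.76, 0.0452). Sox10 was not called without RA GFP+ replicate 3, and Isl1 in any fit that left out 1 RA library or SAG GFP+ replicate 2. The gene lower in that comparison, Prdm12, a factor of pain-sensing and V1 neuron progenitors, had a log2 fold change of -2.70 (adjusted p = 0.00355). Beside Olig3 and Atoh1, which mark dorsal progenitors, 11 roof plate and dorsal genes were tested. In SAG GFP+ 0 were higher and 9 lower over RA GFP- (edgeR and DESeq2 alike, and 10 lower at an unadjusted p under 0.05). Over RA GFP+ 0 were higher and 5 lower, with 1 higher by DESeq2, at an unadjusted p under 0.05 and without SAG GFP+ replicate 3. The dorsal factor Pax3 had 0.285, 0 and 0 CPM in SAG GFP+, 10.8, 8.54 and 14.7 CPM in RA GFP+, and 43.1, 61.9 and 59.5 CPM in RA GFP-. Pax7 had 0.978, 0.375 and 0.156 CPM in SAG GFP+, 9.72, 12.4 and 25.1 CPM in RA GFP+, and 25.8, 40.1 and 62.7 CPM in RA GFP-. Olig3 was highest in the libraries where these dorsal genes were lowest. In RA GFP+ over RA GFP-, 1 of the 11 was higher (Msx1, 1.96, not called when RA GFP- replicate 2 or 3, or replicate 1 of RA GFP+, was left out) and 5 lower, with 8 lower under the replicate block in the 6 RA libraries and 3 lower when RA GFP+ replicate 1 or 2, or replicate 2 of RA GFP-, was left out.

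**Figure D5:**
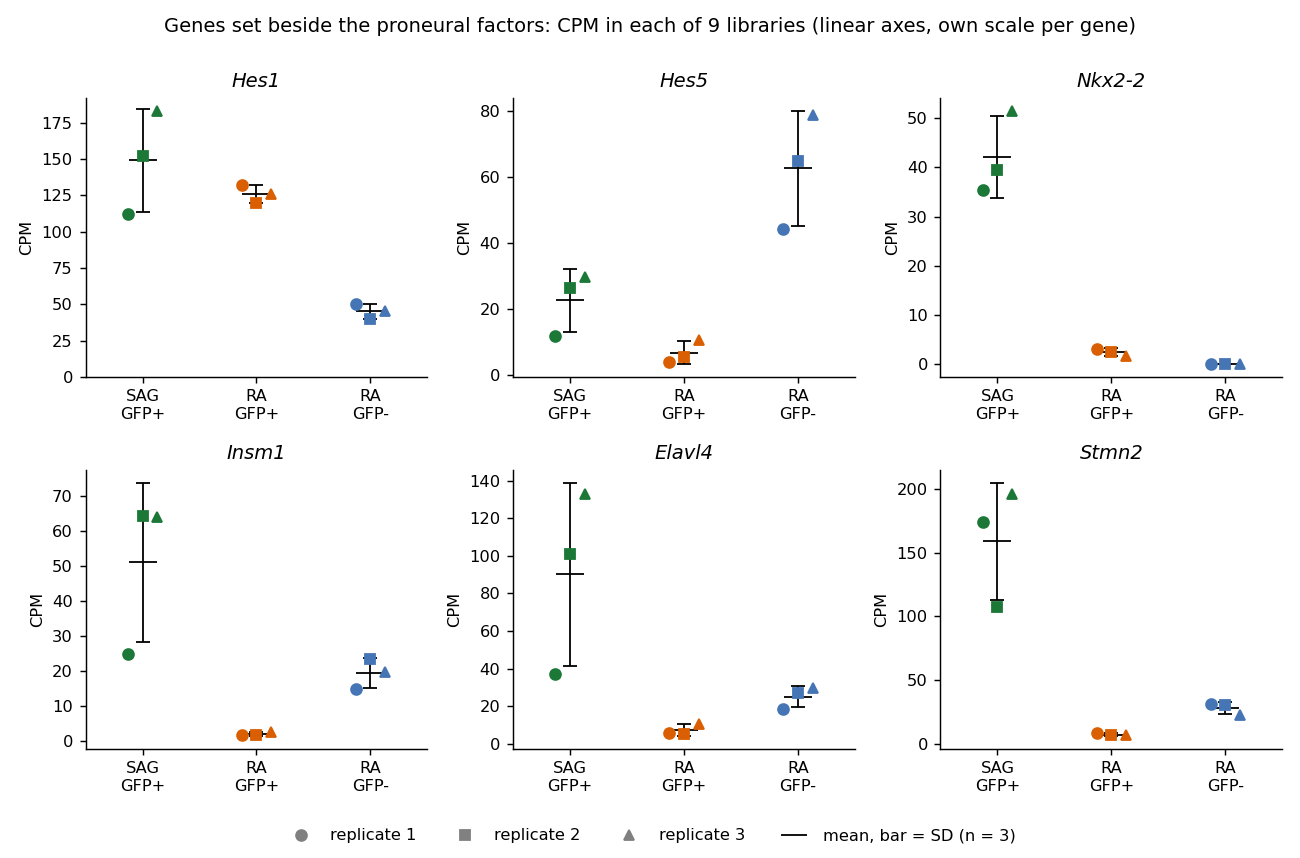
CPM of Hes1, Hes5, Nkx2-2, Insm1, Elavl4 and Stmn2 in each library, with 1 panel a gene on its own linear axis, symbols for replicates 1 to 3, and the mean with its SD (n = 3). Nkx2-2, Insm1, Elavl4 and Stmn2 are highest in SAG GFP+, Hes5 is highest in RA GFP-, and Hes1 is higher in both GFP+ groups than in RA GFP-.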

How the data were processed

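Per the labels' protocols, sorted cells gave poly(A) RNA that was made into libraries with a directional kit. Whole-number counts of reads, 1 deposited column per library and 1 line per Ensembl gene, were used without change. The submitters' processing notes name featureCounts (Subread 1.6.2), Bowtie2 2.3.4.1, Trim Galore 0.5.0 and GRCm38. Which strand setting and annotation the counting used is not given in the sources used here.

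Symbols and 1-based coordinates come from GENCODE M21 (GRCm38), and promoter sequences from a RefSeq table (GRCm38.p6). Counts were fitted with edgeR 4.0.16 (R 4.3.3) in 1 model with 3 group means over the 9 libraries, after TMM scaling (factors 0.972 to 1.03), with genes kept by filterByExpr at a minimum count of 10 (16772 genes) and quasi-likelihood tests. P-values were adjusted by Benjamini-Hochberg over all tested genes within a comparison, and "higher", "lower", "rose" and "fell" are used of genes at an adjusted p under 0.05. The SE is the log2 fold change divided by the root of the test's F value. CPM divide counts by the total over tested genes times the TMM factor, and CPM per kb also by the summed exon length. Log2 CPM for correlations used a prior count of 2. Floors and intervals, set at 3 counts per group and 95%, cover counting error only. The test was tried on simulated data with 200 changed genes before use.

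The alternatives were DESeq2 1.42.0, RLE scaling, library totals alone, no filter on low counts, a fit of the 6 libraries compared, the replicate number as a block in 9 or 6 libraries, and leaving out each library. RA GFP+ and RA GFP- libraries of the same number deviated together from their group means (r over genes of 0.273, 0.307 and 0.347), and the numbers are taken to pair them. The labels call the replicates biological and do not say what a number shares. The members and gene lists were chosen with earlier results of these data known. The text names all 9 members, Foxa2, list genes among the 2 called ones with the smallest adjusted p in a comparison, the 3 genes most like each member, and list genes needed to account for a count. Other list genes were chosen after their values were seen.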

Additional observations from a re-analysis of the deposited data

How the results depend on the processing

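Over 16 alternatives for each of 8 members in 3 comparisons (384 values), 358 kept their direction and their side of the threshold, 9 lost and 9 gained a call, and 8 changed sign, none of them called. Other scalings changed no member's call. The sign changes came from leaving out 1 library. As log2 fold changes, Olig3 in RA GFP+ over RA GFP- ranged from -1.10 without RA GFP+ replicate 3 to 0.052 without RA GFP- replicate 1. In SAG GFP+ over RA GFP+, Neurog1 was 0.62, 0.37 and 0.20 without RA GFP+ replicate 3, SAG GFP+ replicate 1 and SAG GFP+ replicate 3, in a range of -1.81 to 0.62. Neurog2 was -0.26, -0.055 and -0.27 without RA GFP+ replicate 1, RA GFP+ replicate 2 and SAG GFP+ replicate 1, in a range of -0.27 to 0.83. Neurog3 was 0.21 without SAG GFP+ replicate 1, in a range of -0.51 to 0.21.

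With the replicate block in 6 libraries, 2615 genes were higher and 2625 lower in RA GFP+ over RA GFP-, against 1424 and 1414, and 7 members were lower under both blocks. SAG GFP+ libraries share only a number with the RA libraries: same-numbered deviations correlated at 0.111, -0.0816 and 0.182 with RA GFP+ and at 0.175, -0.0218 and 0.242 with RA GFP-. Under the block Olig3 passed in SAG GFP+ over RA GFP- (adjusted p 0.0315 in 9 libraries, 0.00472 in 6), so 2 members were higher there, as with DESeq2, no filter or the 6 libraries compared, against 1. The block changed no other member's call. Leaving out 1 library gave 893 to 1684 genes higher, 890 to 1684 lower and 5 to 7 members lower within RA, the lowest counts of genes being 893 higher without RA GFP+ replicate 2, and 890 and 915 lower without RA GFP+ replicates 2 and 1. The same gave 954 to 2092 genes higher in SAG GFP+ over RA GFP+ (954 without RA GFP+ replicate 1, 957 without replicate 2), and 2 to 4 members higher. In SAG GFP+ over RA GFP-, 1 to 2 members were higher. The cause of these changes was not tested. Depth limits the members with few counts, such as Neurog2 with 78 counts in all SAG GFP+ and 81 in all RA GFP+ libraries.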
